A study of Rattus norvegicus with 12 samples.

Results

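9 genes of antibody-making cells and of antibody transport were followed through rat pancreatic islets: the antibody chain genes Ighg, IGG-2A, IGH-1A and Igkc, the B cell surface genes Cr2, Cd79a, Cd79b and Ms4a1, and Pigr, the receptor that carries antibodies across epithelia. Each of these 9 symbols, of 25888 in the deposited count table, had 1 transcript row. They were selected on earlier results of these data, in which replicate 2 stood apart from the other 10-week libraries in its counts of such genes. Comparisons that use 10-week libraries are therefore descriptions of the fit over all transcripts and support nothing on their own.

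The islets came from Sprague Dawley rats with intrauterine growth restriction (IUGR), brought about by ligating both uterine arteries of the dam at embryonic day 18, and from control rats, whose litters were culled to 8 pups. There were 4 groups of 3 libraries of total RNA: IUGR at 10 weeks of age, control at 10 weeks, IUGR at 2 weeks and control at 2 weeks. Pooling of animals or litters and sex are not stated in the labels, so p-values measure only the spread between these libraries, which may be technical in part.

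B cells carry an antibody on their surface as part of the B cell receptor. Cd79a and Cd79b are the signalling partners of that antibody, Ms4a1 encodes CD20, and Cr2 encodes complement receptor 2, which is also made by follicular dendritic cells. Plasma cells, which develop from B cells, lose much of this surface equipment and secrete antibody, so their RNA is rich in constant regions. A naive B cell uses the mu heavy chain, and class switching replaces it with another chain such as gamma. Ighg, IGG-2A and IGH-1A are taken here as gamma heavy chain rows and IGH-6 as mu, by their symbols (the last by mouse usage); their sequences were not checked. Igkc is the constant region of the kappa light chain. Pigr is made by epithelial cells, not by B cells, and moves dimeric IgA from the tissue side to the duct or gut lumen. Reads of near-identical constant regions could have been shared between rows, so the split between the gamma rows is uncertain.

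RefSeq promoter sequence (build GRCr8) was at hand for 3 of the 9 genes. The 250 bases before the start of each are shown because Cd79a and Cr2 moved together across the libraries and Pigr did not follow them. Capitals mark the matches to any motif searched. The windows are chr1:89621210-89621459 on the plus strand for Cd79a, chr13:109244507-109244756 on the minus strand for Cr2, and chr13:44850932-44851181 on the plus strand for Pigr.
Cd79a: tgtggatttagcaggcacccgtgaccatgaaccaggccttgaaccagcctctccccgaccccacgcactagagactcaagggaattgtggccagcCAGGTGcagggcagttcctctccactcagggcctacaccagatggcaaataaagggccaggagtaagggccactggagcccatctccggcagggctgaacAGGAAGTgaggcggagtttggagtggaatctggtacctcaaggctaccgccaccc
Cr2: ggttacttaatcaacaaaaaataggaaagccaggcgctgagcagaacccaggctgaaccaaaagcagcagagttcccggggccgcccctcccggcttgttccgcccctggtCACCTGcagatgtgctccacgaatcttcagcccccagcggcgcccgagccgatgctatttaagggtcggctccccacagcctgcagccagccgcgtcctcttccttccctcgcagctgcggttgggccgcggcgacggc
Pigr: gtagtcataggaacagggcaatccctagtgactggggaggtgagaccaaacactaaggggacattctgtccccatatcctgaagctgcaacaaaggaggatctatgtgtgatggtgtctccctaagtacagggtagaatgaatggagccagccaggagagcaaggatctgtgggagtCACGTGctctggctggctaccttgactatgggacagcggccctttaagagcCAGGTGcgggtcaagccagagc

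6 motifs were searched on both strands. AGGAAGT, the core bound by PU.1, was in the Cd79a window at -55 to -49 from the start and in 7.08% of 33469 RefSeq promoter windows of this length. CAGGTG, an E-box that E2A proteins can bind, was in all 3 windows (in Cr2 on the other strand, as CACCTG) and in 15.9% of all windows. CACGTG, an E-box of the USF type, was in the Pigr window alone of the 3, at -73 to -68, and in 5.59% of all. The octamer ATTTGCAT (1.56% of all windows), the Ebf1-type CCCNNGGG (10.8%) and TATAAA (12.9%) were in none of the 3. These matches describe letters in the windows and no binding was measured.

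At 10 weeks 1 control library, replicate 2, held most of the antibody counts of its group. Levels are given as scaled CPM, counts relative to a library total adjusted by edgeR's TMM factor. Ighg had 0.0557, 1.12 and 1.26 scaled CPM in IUGR replicates 1 to 3 at 10 weeks, against 8.14, 340.3 and 0.256 scaled CPM in the control replicates. The control replicates thus spanned the largest part of the range, and the lowest of them lay inside the IUGR range. Replicate 2 held 97.6% of the control group's Ighg sum. IGG-2A was arranged in the same way, with 0.473, 1.74 and 0.766 scaled CPM in IUGR islets and 2.19, 109.2 and 1.02 scaled CPM in control islets. IGH-1A had 0.779, 19.8 and 8.5 scaled CPM in IUGR islets and 2.57, 46.2 and 11.1 scaled CPM in control islets, so replicate 2 was the highest of both groups. For the kappa chain, Igkc had 13.7, 63.0 and 46.7 scaled CPM in IUGR islets and 23.5, 404.1 and 24.4 scaled CPM in control islets. For all 4 chains the groups overlapped.

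The B cell surface genes had another arrangement, with replicate 2 high in both groups. Cr2 had 5.09, 61.1 and 13.3 scaled CPM in IUGR islets at 10 weeks, against 0.887, 59.7 and 1.13 scaled CPM in control islets. Both libraries numbered 2 thus stood at about the same level, and the other IUGR libraries stood above the other control libraries. In Ms4a1 replicate 2 was again the highest of each group, and higher in the control than in the IUGR group, with 3.51, 11.7 and 4.74 scaled CPM in IUGR islets and 0.951, 22.1 and 0.621 scaled CPM in control islets. Cd79b had 2.81, 13.1 and 5.39 scaled CPM in IUGR islets and 0.412, 17.0 and 1.06 scaled CPM in control islets. Cd79a, the lowest in counts of the 4, had 0.640, 2.07 and 0.816 scaled CPM in IUGR islets and 0.222, 3.08 and 0.183 scaled CPM in control islets. In each of these 4 genes both IUGR libraries other than replicate 2 were above both control libraries other than replicate 2. In bulk RNA, fewer cells of a type and less RNA per cell cannot be told apart.

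Pigr went the other way round within the controls. It had 19.3, 9.84 and 11.4 scaled CPM in IUGR islets at 10 weeks, against 104.9, 25.4 and 109.5 scaled CPM in control islets. Every control library lay above every IUGR library, and replicate 2 was the lowest of its group in both. It held 10.6% of the control group's Pigr sum. The TMM factors at 10 weeks were 1.18, 1.18 and 1.16 in IUGR islets and 0.492, 1.07 and 0.440 in control islets. A low factor raises scaled CPM, so part of the height of control replicates 1 and 3 comes from the scaling.

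**Figure D1:**
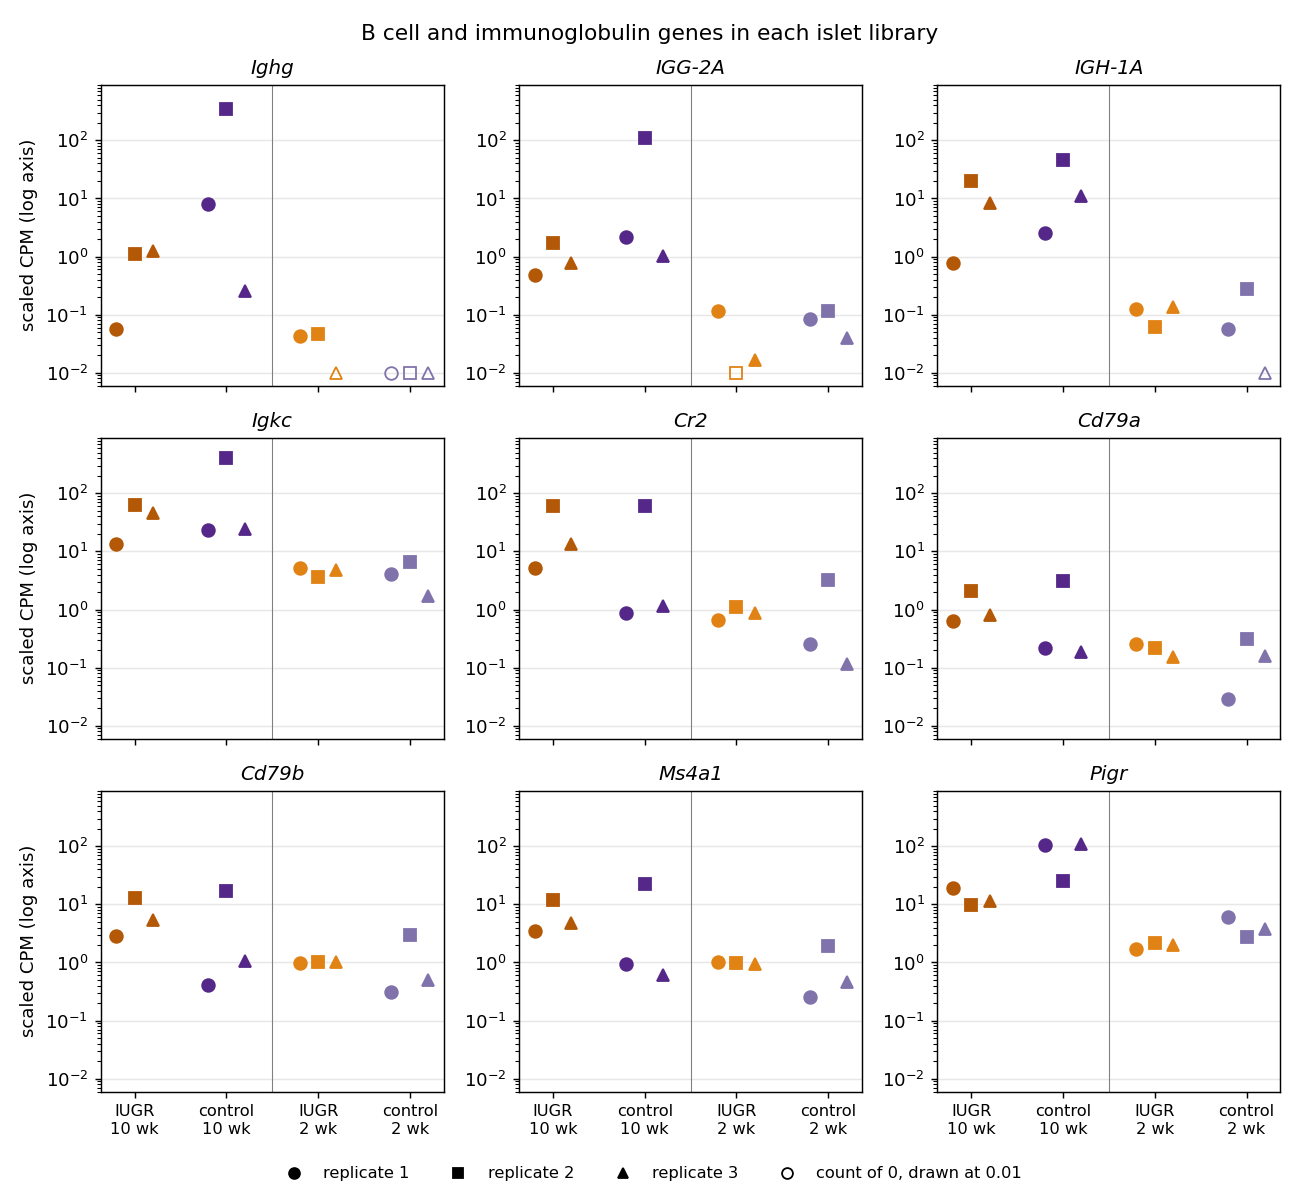
Scaled CPM (counts scaled to the TMM-adjusted library total, log axis) of the 9 genes in each of the 12 libraries; symbol shape gives the replicate number and open symbols a count of 0. At 10 weeks the square of control replicate 2 stands at 340.3 scaled CPM for Ighg, while both squares are high for Cr2, and for Pigr all 3 control symbols lie above the IUGR ones.

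In the fit over all 20733 transcripts, 3 of the 9 genes were lower in IUGR than in control islets at 10 weeks and none was higher, where 27.9% of all transcripts passed in either direction and 12.4% were higher and 15.5% lower. Ighg had a log2 fold change of -7.13 ± 2.05 (SE; adjusted p = 0.0316, edgeR), IGG-2A of -5.23 ± 1.48 (adjusted p = 0.0245) and Pigr of -2.57 ± 0.49 (adjusted p = 0.00508). Among these 3, the groups did not overlap for Pigr alone (18.9% of all transcripts had IUGR libraries below every control library). The other chains gave -1.04 ± 0.999 for IGH-1A (adjusted p = 0.463) and -1.87 ± 0.99 for Igkc (adjusted p = 0.177). The surface genes were near 0, between -0.27 ± 1.06 for Ms4a1 (adjusted p = 0.876) and 0.35 ± 1.37 for Cr2 (adjusted p = 0.874). The median log2 fold change of the 9 genes was -1.04, beside -0.01 over all transcripts tested.

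Leaving out control replicate 2 changed the calls of 6 of the 9 genes. Without it, Ighg gave -2.37 (adjusted p = 0.176) and IGG-2A -0.69 (adjusted p = 0.484), so both were no longer past the threshold. Both calls were also lost when any single IUGR library of that age was left out, with adjusted p of 0.0862 to 0.0955 for Ighg and 0.0580 to 0.0811 for IGG-2A (edgeR). Without control replicate 2 the surface genes passed as higher in IUGR islets, Cr2 with a log2 fold change of 4.73 ± 1.36 (adjusted p = 0.0355), Ms4a1 with 3.08 ± 0.78 (adjusted p = 0.0217), Cd79b with 3.31 ± 0.97 (adjusted p = 0.0366) and Cd79a with 2.53 ± 0.74 (adjusted p = 0.0361). That setting left 2 controls at 10 weeks and 20.8% of transcripts called. Its 10-week groups also did not overlap in RNA of the acinar tissue around the islets, described below. Acinar RNA and IUGR cannot be told apart there. Leaving out both libraries numbered 2 gave 3.22 for Cr2 (adjusted p = 0.0838), 2.41 for Ms4a1 (adjusted p = 0.0521), 2.54 for Cd79b (adjusted p = 0.0884) and 1.86 for Cd79a (adjusted p = 0.0859), and none of the 4 passed. Pigr stayed lower, at -2.97 (adjusted p = 0.000234) without control replicate 2 and -2.77 (adjusted p = 0.00145) without both.

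**Figure D2:**
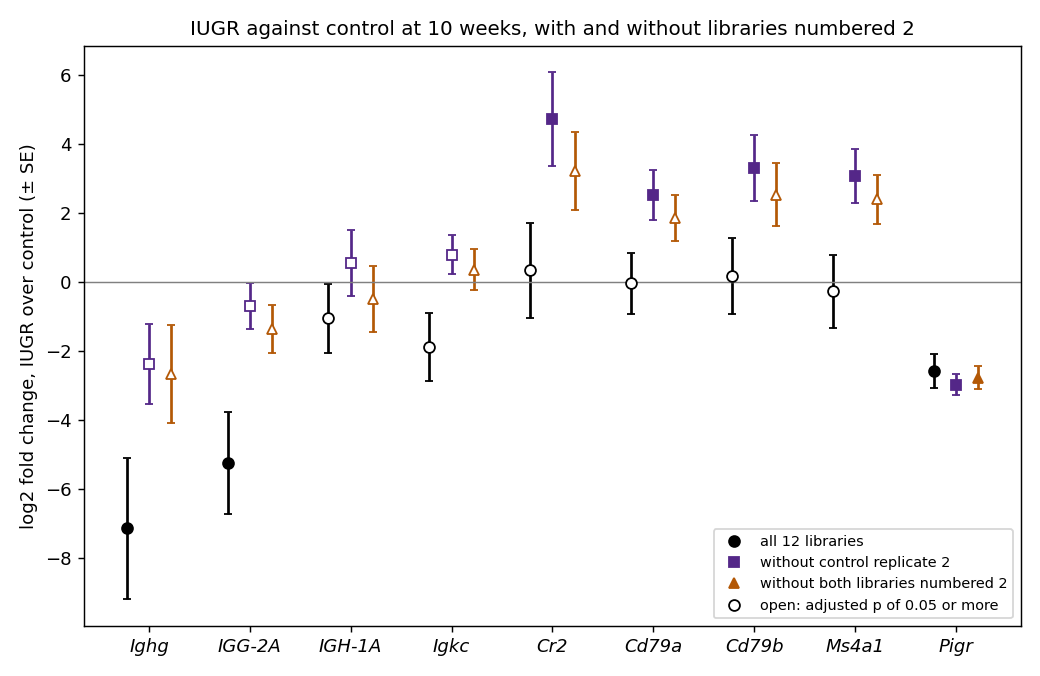
Log2 fold change of IUGR over control islets at 10 weeks (± SE) for the 9 genes with all libraries, without control replicate 2 and without both libraries numbered 2; filled symbols have an adjusted p under 0.05. Cr2 is at 0.35 with all libraries and at 4.73 without control replicate 2, while Pigr lies between -2.97 and -2.57 in all 3.

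The 2 libraries numbered 2 could be set side by side at 10 weeks as single libraries, with exact 95% intervals that cover counting error only. Ighg was 303.6 times higher in the control than in the IUGR library of that number (interval 226.8 to 416.4), and IGG-2A was 62.6 times higher (49.5 to 80.5). Igkc was 6.41 times higher (6.15 to 6.69) and IGH-1A 2.33 times (2.15 to 2.53). Cr2 was at 0.978 times (0.925 to 1.03), Cd79b at 1.30 times (1.16 to 1.46), Cd79a at 1.49 times (1.12 to 1.99) and Ms4a1 at 1.89 times (1.69 to 2.12). The 2 libraries were thus alike in Cr2 and differed by much more in Ighg and IGG-2A than in the B cell surface genes.

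2 ratios within each library were formed after the values had been seen and are given without a test. The first set gamma rows against IGH-6, both heavy chains, and the second set Igkc against B cell surface genes. The first used the rows Ighg, IGG-2A and IGH-1A as gamma and, of 3 IGH-6 rows, the one with the most counts, and left out Ighg3. These gamma rows took 5.13%, 20.5% and 11.9% of gamma and IGH-6 counts in IUGR replicates 1 to 3 at 10 weeks, against 55.0%, 84.3% and 38.6% in the control replicates. The widest 95% Wilson intervals of these shares ran from 3.88% to 6.76% in IUGR replicate 1 and from 51.4% to 58.6% in control replicate 1. Every control library had a larger gamma share than every IUGR library, replicate 2 or not. Another 2 settings were added after seeing the data. With all 3 IGH-6 rows, of which a pair had nearly the same counts and may hold the same reads, the share was 2.61%, 11.7% and 6.39% in IUGR islets and 36.5%, 72.2% and 23.0% in control islets. With Ighg3 added and 1 IGH-6 row it was 7.65%, 22.1% and 13.7% in IUGR islets and 56.1%, 84.4% and 39.5% in control islets, and the groups did not overlap in either setting. Igkc had 1.97, 2.34 and 4.26 counts per count of Cd79a, Cd79b and Ms4a1 in IUGR islets at 10 weeks, against 14.8, 9.57 and 13.1 in control islets, again without overlap. The surface counts in this ratio were 50 and 51 in control replicates 1 and 3, and no interval is given. In control replicate 3 most of the gamma counts came from IGH-1A, since Ighg and IGG-2A took 4.0% of the heavy chain counts there, against 44.1% in control replicate 1 and 76.4% in control replicate 2. In the IUGR libraries these 2 rows took 2.07%, 2.59% and 2.30%.

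**Figure D3:**
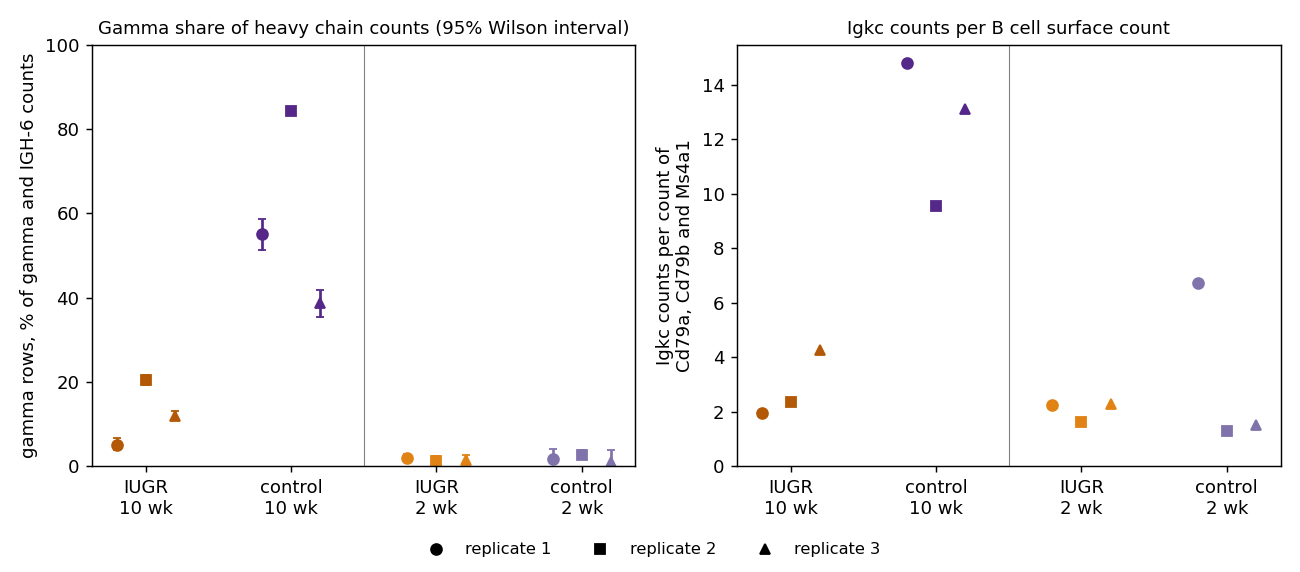
Left, share of the gamma rows Ighg, IGG-2A and IGH-1A in gamma and IGH-6 counts (percent, with 95% Wilson intervals); right, Igkc counts per count of Cd79a, Cd79b and Ms4a1, both per library. At 10 weeks the 3 control libraries lie above the 3 IUGR libraries in both panels, from 38.6% against at most 20.5% on the left and from 9.57 against at most 4.26 on the right.

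The IGH-6 row with the most counts was not arranged like Ighg and IGG-2A. It had 24.2, 88.0 and 77.7 scaled CPM in IUGR islets at 10 weeks and 10.6, 92.6 and 19.6 scaled CPM in control islets, with a log2 fold change of 0.62 ± 0.75 (adjusted p = 0.562, edgeR). Both groups' replicates 2 were close in this row. The IGH-6 row with the fewest counts had 237 counts in IUGR replicate 2 and 623 counts in control replicate 2, with a log2 fold change of -0.88 ± 0.81 (adjusted p = 0.446, edgeR). The epsilon chain row Ighe and the gamma row Ighg3 were highest in control replicate 2, at 7.62 and 7.08 scaled CPM. Heavy chain variable segments, the parts that bind antigen, had 6 rows under 3 symbols, some with identical counts. With 1 row per symbol they held 1, 22 and 1 counts in IUGR islets at 10 weeks and 0, 192 and 3 counts in control islets.

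At 2 weeks the gamma rows were close to 0 and 0 of the 9 genes passed between IUGR and control islets (edgeR), where 3.88% of all 20733 transcripts did; DESeq2 and the other alternatives called 0 too. At an unadjusted p under 0.05 there were 0 of the 9 and 5939 of all transcripts. Ighg had 3, 3 and 0 counts in IUGR libraries at 2 weeks and 0, 0 and 0 counts in control libraries. Igkc had 5.10, 3.62 and 4.81 scaled CPM in IUGR islets and 4.04, 6.63 and 1.69 scaled CPM in control islets, with a log2 fold change of 0.13 ± 1.02 (adjusted p = 0.949). The surface genes overlapped too, and control replicate 2 was the highest of all 6 libraries for each of them. Cr2 had 0.652, 1.09 and 0.868 scaled CPM in IUGR islets at 2 weeks and 0.258, 3.25 and 0.118 scaled CPM in control islets. Ms4a1 had 1.04, 0.978 and 0.935 scaled CPM in IUGR islets and 0.258, 1.92 and 0.471 scaled CPM in control islets, so the IUGR libraries lay close together and the control libraries did not. Cd79b was arranged likewise, with 0.992, 1.04 and 1.04 scaled CPM in IUGR islets and 0.315, 2.95 and 0.490 scaled CPM in control islets. The gamma rows took 1.97%, 1.14% and 1.48% of gamma and IGH-6 counts in IUGR islets at 2 weeks and 1.73%, 2.57% and 1.08% in control islets, and both groups were below every 10-week library in this share. Per count of Cd79a, Cd79b and Ms4a1, Igkc had 2.24, 1.62 and 2.27 counts in IUGR islets and 6.71, 1.28 and 1.51 in control islets. In this ratio control replicate 1, with 21 surface counts, was above every IUGR library at 10 weeks. Pigr alone did not overlap (16.8% of transcripts had IUGR libraries below every control library), with 1.73, 2.17 and 1.99 scaled CPM in IUGR islets and 6.01, 2.76 and 3.85 scaled CPM in control islets, and its log2 fold change of -1.09 ± 0.51 missed the threshold (adjusted p = 0.187). The IUGR effect at 10 weeks minus that at 2 weeks passed for 0 of the 9 genes by edgeR, with 14.3% of all transcripts past it, and 0 of the 9 had an unadjusted p under 0.05 (6441 transcripts in all). DESeq2 called 1 of the 9, Ighg, whose 2-week controls had no count. For Pigr this difference was -1.48 ± 0.69 (adjusted p = 0.172), and it passed without control replicate 2 at 10 weeks (-1.83, adjusted p = 0.0236).

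The antibody rows were higher at 10 than at 2 weeks in control islets. There 5 of the 9 genes passed as higher, where 32.3% of all transcripts passed and 17.2% were higher, and the same number of genes had groups without overlap (20.6% of all transcripts were above in that way). IGG-2A had a log2 fold change of 8.83 ± 1.95 (adjusted p = 0.00656, edgeR), IGH-1A of 7.40 ± 1.52 (adjusted p = 0.00443), Igkc of 5.19 ± 1.16 (adjusted p = 0.00692) and Pigr of 4.26 ± 0.53 (adjusted p = 0.000363). Ighg (adjusted p = 0.0128) was at least 1715-fold higher, against a floor of 3 counts per library at 2 weeks, and at least 62.0-fold higher without control replicate 2. The latter bound uses the mean of control replicates 1 and 3, which had 257 and 7 counts. At 8.14 and 0.256 scaled CPM, against a floor of 0.0678, it rests mostly on replicate 1. With control replicate 2 left out, IGG-2A gave 4.29 (adjusted p = 0.00377) and Igkc 2.54 (adjusted p = 0.00843). The surface genes ran from 2.29 ± 1.18 for Cd79b (adjusted p = 0.157) to 4.05 ± 1.63 for Cr2 (adjusted p = 0.0780) and did not pass. Without control replicate 2 they lay between -0.83 for Cd79b and 0.21 for Cd79a.

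In IUGR islets 8 of the 9 genes, Ighg left out, had 10-week libraries above every 2-week library in scaled CPM, where 33.9% of all transcripts did, and 4 of the 9 passed as higher, where 27.3% did (56.5% in either direction). These were IGH-1A with a log2 fold change of 6.46 ± 1.46 (adjusted p = 0.00302, edgeR), Cr2 with 4.93 ± 1.68 (adjusted p = 0.0270), Igkc with 3.19 ± 1.06 (adjusted p = 0.0239) and Pigr with 2.78 ± 0.52 (adjusted p = 0.000900). Cd79a gave 2.48 ± 0.99 (adjusted p = 0.0508), Ms4a1 2.76 ± 1.16 (adjusted p = 0.0625) and Cd79b 2.80 ± 1.20 (adjusted p = 0.0659). Ighg, with 2, 45 and 51 counts at 10 weeks and 3, 3 and 0 counts at 2 weeks, gave 4.63 ± 3.37 (adjusted p = 0.268). Its lowest 10-week library lay above the 2-week libraries through scaling alone, at counts at or under the floor of 3. IGG-2A gave 4.37 ± 2.24 (adjusted p = 0.118).

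Other B cell genes, from a list of receptor and signalling genes, shared the high replicates 2 with the surface genes. Both libraries numbered 2 at 10 weeks were the highest of their group for 39 of 43 listed genes. The share of all transcripts highest in replicate 2 is not given here, so such counts, here and below, lack that comparison. Control replicate 2 also stood apart over all tested transcripts, with Pearson r of log2 CPM of 0.955 and 0.960 to control replicates 1 and 3. Those had 0.976 with each other, and the IUGR libraries at 10 weeks had 0.978 to 0.979. The summed level was 602.2 to 953.7 scaled CPM in IUGR islets and 552.1 to 1071 scaled CPM in control islets at 10 weeks, and each 10-week library had at most 1 listed gene at 0. Between IUGR and control islets at 10 weeks 0 of 42 tested passed as higher and 1 as lower by edgeR (0 and 2 at an unadjusted p under 0.05), with a median log2 fold change of -0.08. The 1 gene was Cd24, which many epithelial cells also make, with -1.99 ± 0.36 (adjusted p = 0.00404). Without control replicate 2, 11 of 42 were higher and 1 lower, and without both libraries numbered 2, 2 of 41 were higher and 1 lower. Over all transcripts this comparison called 20.8% and 13.9% in these settings, beside 27.9% with all libraries. Of the 20733 tested with all libraries, 8571 had an unadjusted p under 0.05 (edgeR). These values are the background for this list and for each list below.

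Transcription factors of B cells gave 0 of 14 higher and 1 lower at 10 weeks (0 and 3 at an unadjusted p under 0.05). Ebf1, which B cells and stromal cells both use, had 5.48, 5.31 and 6.92 scaled CPM in IUGR islets and 9.70, 21.5 and 18.2 scaled CPM in control islets (log2 fold change -1.48 ± 0.29, adjusted p = 0.00558, edgeR). Pou2af1, a co-activator of antibody genes, had 1.48, 6.95 and 3.11 scaled CPM in IUGR islets and 0.761, 23.0 and 1.06 scaled CPM in control islets. Control replicate 2 was the highest of its group for 14 of 14. Leaving out control replicate 2 gave 3 of 14 higher and 1 lower, and leaving out both libraries numbered 2 gave 2 higher and 1 lower.

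Of 21 tested genes of plasma cells and antibody secretion, 2 were higher and 5 lower in IUGR islets at 10 weeks. Without control replicate 2 there were 3 higher and 4 lower, and without both libraries numbered 2, 0 higher and 4 lower. Several of those that passed act in the secretory pathway of any cell. Hspa5, an ER chaperone, was higher (0.77 ± 0.20, adjusted p = 0.0186, edgeR), as was Pdia4, a disulphide isomerase (0.67 ± 0.15, adjusted p = 0.00876). Prdx4, an ER peroxidase, was lower (-3.75 ± 0.59, adjusted p = 0.00221), and Sdc1, a surface proteoglycan of plasma cells and epithelia, too (-1.81 ± 0.22, adjusted p = 0.00106). Control replicate 2 was the highest of its group at 10 weeks for 9 of the 21 genes. Its summed level, 1648 scaled CPM, was below the 2809 and 2436 scaled CPM of control replicates 1 and 3. Mzb1 and IGJ, added after their values were seen, were highest in control replicate 2, as the gamma rows were. Mzb1, a chaperone of antibody assembly, had 0.139, 0.897 and 0.593 scaled CPM in IUGR islets at 10 weeks and 0.380, 9.50 and 0.438 scaled CPM in control islets. IGJ, the joining chain, had 0.668, 2.74 and 1.95 scaled CPM in IUGR islets and 1.01, 10.4 and 0.913 scaled CPM in control islets. Germinal centre and class switching genes gave 0 of 11 higher and 3 lower (0 and 4 at an unadjusted p under 0.05), among them S1pr2 (-1.56 ± 0.35, adjusted p = 0.00943) and Bcl6 (-1.05 ± 0.34, adjusted p = 0.0394). Among the 14 genes of this list found, replicate 2 was the highest of its group at 10 weeks for 8 in IUGR and 12 in control islets. Without control replicate 2, 0 of 11 were higher and 2 lower, and without both libraries numbered 2, edgeR called 0 of 10 in each direction. Over all transcripts 27.9% were called with all libraries, 20.8% without control replicate 2 and 13.9% without both. The 3 of 11 called with all libraries were all lower, where 15.5% of all transcripts were lower and 27.9% passed in either direction.

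Markers of T cells shared the high replicates 2 with the B cell surface genes. Their summed level was 32.6, 118.6 and 39.6 scaled CPM in IUGR islets at 10 weeks and 21.8, 110.8 and 43.2 scaled CPM in control islets, with no listed gene at 0 in any of these 6 libraries. Replicate 2 was the highest of its group for 24 of 27 in IUGR islets and 25 of 27 in control islets. At 2 weeks it was the highest for 20 of 27 in IUGR islets and 27 of 27 in control islets. Of the 27, edgeR called 0 higher and 3 lower in IUGR islets at 10 weeks (1 and 3 at an unadjusted p under 0.05), namely Ccl5, Gzmb and Nkg7, genes of cytotoxic cells (log2 fold changes -2.03, -1.85 and -1.69). Of the 27, 3 were higher and 2 lower without control replicate 2, and without both libraries numbered 2, 1 was higher and 0 lower. Macrophage genes too had their highest sum at 10 weeks in replicate 2, at 265.0 scaled CPM in IUGR and 589.2 scaled CPM in control islets. Replicate 2 was the highest of its group for 16 of 23 macrophage genes in IUGR islets and 9 of 23 in control islets. The part of lymphoid cells other than B cells in the values of the 9 genes was not tested. Of the genes of follicular dendritic cells and lymphoid stroma, which can also make Cr2, 0 of 22 were higher and 6 lower (0 and 7 at an unadjusted p under 0.05). These counts were 4 higher and 3 lower without control replicate 2, and without both libraries numbered 2, 2 were higher and 1 lower. Among the 6 was Ltbr, a receptor of lymphoid stroma, with -0.56 ± 0.09 (adjusted p = 0.00290, edgeR). Cxcl13, a chemokine of B cell follicles, had 2.45, 26.5 and 9.24 scaled CPM in IUGR islets and 13.2, 14.98 and 52.3 scaled CPM in control islets, an order unlike that of Cr2.

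The libraries also differed in acinar RNA, the enzyme-making tissue around the islets, which took a smaller share of counts in every IUGR library than in every control library of its age. The 39 acinar genes found took 1.27%, 2.33% and 0.625% of counts in IUGR islets at 10 weeks, against 43.0%, 14.0% and 47.5% in control islets, and at most 1 of them was at 0 in any library. At 2 weeks they took 6.37%, 4.38% and 9.39% in IUGR islets and 42.3%, 22.6% and 21.7% in control islets. Among the 10-week controls replicate 2 was lowest in both acinar share and Pigr. Within the IUGR groups this did not hold, since replicate 2 had the highest acinar share and the lowest Pigr level at 10 weeks, and the lowest acinar share and the highest Pigr level at 2 weeks. In a fit that took the acinar level as covariate, the log2 fold change of Pigr between IUGR and control islets was 0.77 at 10 weeks (adjusted p = 0.557, edgeR) and 0.45 at 2 weeks (adjusted p = 0.722). Since the groups did not overlap in acinar level, acinar RNA and IUGR cannot be told apart for Pigr. The same holds for the antibody chains and the surface genes. In that fit the log2 fold changes of Cr2 and Cd79b at 10 weeks turned negative. With age the values ran apart in IUGR islets, where Pigr was higher at 10 weeks while the acinar genes averaged, in log2 CPM, 5.47, 5.89 and 4.34 at 10 weeks and 7.31, 6.92 and 7.90 at 2 weeks. The 10 against 2 week log2 fold change of Pigr was 4.06 in IUGR islets and 3.75 in control islets with the covariate, and both passed.

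**Figure D4:**
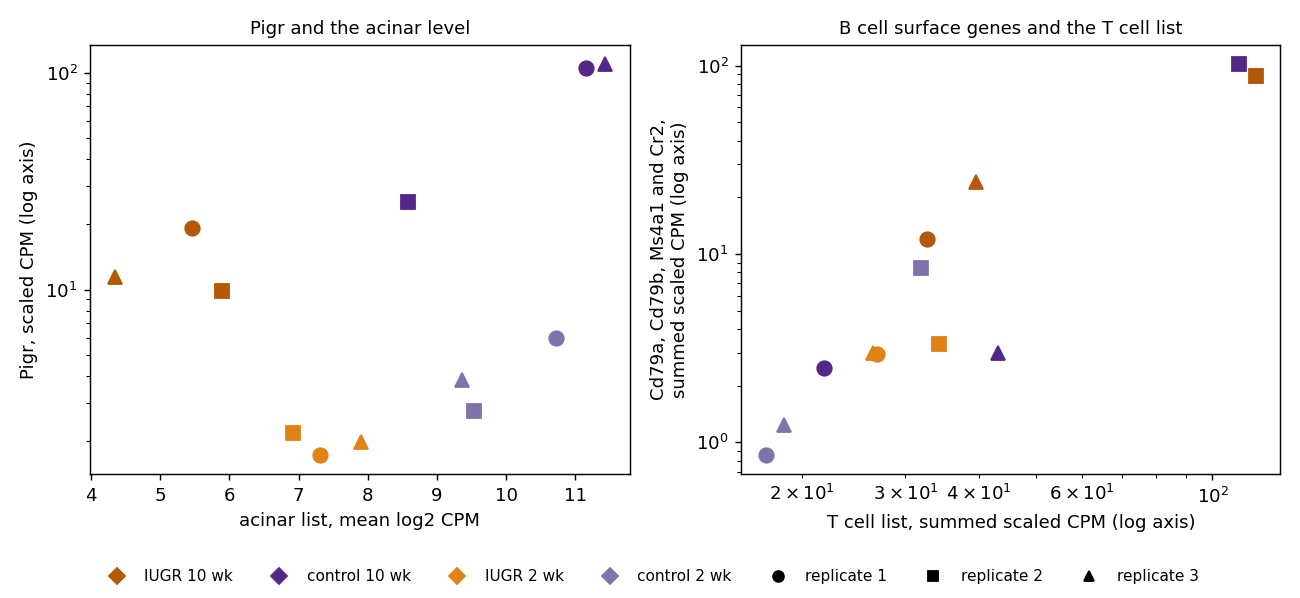
Left, Pigr (scaled CPM, log axis) against the acinar level (mean log2 CPM over the listed genes); right, summed scaled CPM of Cd79a, Cd79b, Ms4a1 and Cr2 against that of the T cell list (log axes), 1 symbol per library. On the left the 10-week controls reach 109.5 scaled CPM of Pigr at the highest acinar levels, and on the right both 10-week libraries numbered 2 stand apart at the upper right.

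Duct cells of exocrine glands are a known site of Pigr. Duct genes gave 0 of 20 higher and 3 lower in IUGR islets at 10 weeks (1 and 5 at an unadjusted p under 0.05, edgeR), with 564.6 to 850.8 scaled CPM summed in IUGR islets and 829.5 to 954.6 in control islets. Of 20 tested genes of IgA transport and mucosal epithelium, 2 were higher and 5 lower, and without both libraries numbered 2, 1 was higher and 2 lower. Duct genes gave 1 higher and 2 lower in that setting. Rab11a and Vps35, which sort endosomal cargo such as the Pigr protein, were higher by 0.40 ± 0.08 (adjusted p = 0.00628, edgeR) and 0.52 ± 0.11 (adjusted p = 0.00797). Tff2, a trefoil peptide (-5.91 ± 0.77, adjusted p = 0.00124), and Muc1, a membrane mucin (-3.37 ± 0.74, adjusted p = 0.00887), were lower. Endocrine genes, which define islets, were present in every library, with a summed level of 197900 to 208000 scaled CPM in IUGR and 103800 to 151800 scaled CPM in control islets at 10 weeks and 0 of the 18 listed genes at 0. Of the remaining lists at 10 weeks, 10 of 18 endocrine genes were higher and 0 lower, 36 of 38 acinar genes, 5 of 23 macrophage genes and 5 of 8 red blood cell genes were lower, and 0 of these 3 lists' genes were higher. The endocrine count was 5 of 18 without control replicate 2 and 3 of 18 without both libraries numbered 2, and macrophage genes gave 3 lower without both. The share of all transcripts called fell as well, from 27.9% with all libraries to 20.8% and 13.9% in these settings.

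Across the 12 libraries the surface genes moved together, with Pearson r of log2(scaled CPM + 0.05) between 0.945 and 0.986 among the 4. Between Pigr and these 4, r was 0.0981 to 0.253, and between Pigr and the 4 antibody chains it was 0.594 to 0.697. The antibody chains had r of 0.808 to 0.959 among themselves. The summed surface genes and the summed antibody chains gave 0.817. These are descriptions over libraries that share groups and stand in separate clusters. Of 13754 other transcripts, those most like the summed surface genes were Tbc1d10c and Wdfy4 (both 0.971), then Cd22, Ptprcap and Traf3ip3 (0.965 each), Spib (0.963), and TRBC2 and Sash3 (0.961 each). For the antibody chains the highest were Trpm2 (0.920), RT1-A2 (0.913) and Lpxn (0.912). For Pigr they were Chac1 (0.962), Slc3a2 (0.959) and Mpzl3 (0.956).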

How the data were processed

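Ribosomal RNA was depleted from islet RNA and strand-marking libraries were made, per the labels' protocols. TopHat2 2.0.9, bedtools and the builds rn5 and mm9 are listed, without roles, per the submitters' processing notes. How reads were counted, with which strand setting and annotation, is not given in the sources used here. Raw counts per Ensembl rat transcript, not normalized, made up the table deposited by the authors, with totals of 30.4 to 64.2 M (M, mega) a library.

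Counts were tested as deposited with edgeR 4.0.16 in R 4.3.3: filterByExpr, TMM factors, robust quasi-likelihood fit of the 4 groups, quasi-likelihood F test, and Benjamini-Hochberg adjustment over the 20733 transcripts tested, with an adjusted p under 0.05 as the threshold. Each standard error is the size of the log2 fold change divided by the root of its F. Scaled CPM are counts per M of the TMM-adjusted library total. Intervals and floors cover counting error only. A group at 0 was compared through a floor of 3 counts per library.

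The 9 genes, the gene lists, the naming rule and the tests were chosen with earlier results of these data known. From each of 12 lists (272 of 285 entries found) the rule took the 4 members with the smallest p at 10 weeks and further members past the threshold, up to 8; the text gives a part. It also took the 8 genes of most similar pattern. Pou2af1, Mzb1, IGJ and Cxcl13 were added after their values were seen. Alternatives were RLE factors, DESeq2 1.42.0, a fit with all transcripts, the replicate number as a block, the acinar level as a covariate, only the 6 libraries compared, and libraries left out. Counts of list genes without the libraries numbered 2, other rows in the gamma share and 1 variable row per symbol were added after seeing the data. The steps were tested on simulated counts. Per transcript lengths were not used, so levels are not compared between genes.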

Additional observations from a re-analysis of the deposited data

How the results depend on the processing

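Replicate numbers are shared by the groups, but the labels do not say what a number stands for: same-numbered libraries correlated between -0.126 and 0.467 in their deviations, over 0.1 in 8 of 18 pairs, and a library correlated best with its own number in 9 of 18. With the replicate block the 9 genes gave 0 calls between IUGR and control islets at 2 weeks, 2 at 10 weeks (3 without it), 8 for age in IUGR islets (4) and 8 for age in control islets (5). Of all transcripts the block called 5.9% between IUGR and control islets at 2 weeks and 26.8% at 10 weeks, beside 3.88% and 27.9% without it. For age the block called 57.1% in IUGR islets and 33.3% in control islets, beside 56.5% and 32.3% without it. The block within age gave 1 at 10 weeks.

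Of the 3 calls at 10 weeks, 1 was left with no filter on low counts, with only the 6 libraries compared and without both 10-week libraries numbered 2. DESeq2 gave 7 calls for age in IUGR islets and 1 for the difference between the IUGR effects. Leaving out both libraries numbered 2 gave 8 and 1, where 55.4% and 9.22% of all transcripts were called (56.5% and 14.3% with all libraries). The 6 libraries alone gave 8 for age in IUGR islets, and no filter and the acinar covariate gave 2 each. For age in IUGR islets, shares of all transcripts under DESeq2, 6 libraries, no filter and the covariate are not given here. DESeq2 gave no adjusted p for IGG-2A. Leaving out 1 library gave 1 to 5 calls at 10 weeks, 0 to 1 for the difference, 2 to 4 for age in IUGR and 5 to 7 for age in control islets.

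Over all transcripts the 2-week comparison (804 calls) gave 3212 by DESeq2, 149 with no filter, 1223 with the replicate block, 2 with the block within age, 0 with the acinar covariate or with 6 libraries, and 0 to 2350 without 1 library. At 10 weeks (5776) there were 1888 with the covariate, 3472 with 6 libraries, 2902 without both libraries numbered 2 and 2971 to 7021 without 1 library. The difference (2973) gave 4701 with the covariate, 1925 without both and 1759 to 4983 without 1 library. Age in control islets (6693) gave 3448 with 6 libraries and 4552 to 6833 without 1 library, and age in IUGR islets 10067 to 10687.

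Of 439 values of single genes under an alternative, 333 kept direction and side of the threshold, 29 lost and 31 gained a call, and 46 changed sign. The acinar covariate turned these signs: at 2 weeks Igkc to -2.26, Cd79a to -2.04, Ms4a1 to -2.71 and Pigr to 0.45; at 10 weeks Cr2 to -4.49, Cd79b to -3.97 and Pigr to 0.77; for the difference Pigr to 0.32; and for age in IUGR islets Ighg to -0.15. With the replicate block Cr2 and Cd79b became 0.79 and 0.56 at 2 weeks (0.19 and 0.18 with the block within age), and Cd79a and Ms4a1 became 0.46 and 0.64 at 10 weeks (0.68 and 1.06 within age). DESeq2 gave Cd79a 0.0042 at 10 weeks. Without both libraries numbered 2, Igkc became 0.37, Cd79a 1.86 and Ms4a1 2.41 at 10 weeks, and Cr2 -0.30, Cd79b -0.82 and Ms4a1 -0.19 for age in control islets.

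Leaving out 1 library at 2 weeks gave -0.25 to 0.68 for Igkc, -1.08 to 2.27 for Cr2, -0.17 to 1.03 for Cd79a, -0.75 to 1.31 for Cd79b and -0.28 to 1.38 for Ms4a1. At 10 weeks it gave -2.10 to 0.55 for IGH-1A, -2.36 to 0.80 for Igkc, -1.17 to 4.73 for Cr2, -0.72 to 2.53 for Cd79a, -0.61 to 3.31 for Cd79b and -0.95 to 3.08 for Ms4a1. For age in control islets it gave -0.31 to 6.85 for Cr2, -0.83 to 3.92 for Cd79b and -0.19 to 4.41 for Ms4a1. Ighg and IGG-2A also lost their 10-week call when any single IUGR library of that age was left out, with adjusted p of 0.0862 to 0.0955 for Ighg and 0.0580 to 0.0811 for IGG-2A. Causes of these shifts were not tested. Counts of 0 to 14 in the 2-week gamma rows limit what can be said of them.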
